A study of Caenorhabditis elegans with 2 samples.

Results

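TALE homeobox genes encode homeodomain proteins with an extra loop of amino acids inside the DNA-binding domain. The 6 members described here, of 19985 protein-coding genes in the annotation, were chosen by name, with the ranks of their entries in these lists known: unc-62 and psa-3 of the MEIS class, ceh-20, ceh-40 and ceh-60 of the PBC class, and irx-1 of the Iroquois class. They were examined in 1 group of CEH-14-GFP whole late embryos of C. elegans, hermaphrodites of strain OP315, taken 5 hours after eggs were released by bleaching. CEH-14, a LIM homeodomain protein, carried GFP and FLAG at its C-terminus in a stable transgenic line, and sonicated chromatin was precipitated with an antibody against GFP. There were 2 biological replicates of the same line, no control library was analysed here, and whole embryos mix all cell types, so an entry cannot be assigned to the cells that express CEH-14. Without a second group, no comparison between conditions or test was possible.

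PBC and MEIS proteins bind DNA together with Hox proteins and with each other, and in Drosophila the MEIS protein Homothorax keeps the PBC protein Extradenticle in the nucleus. The worm relies on them for cell fates along the body axis, for neuroblast migration and for cell divisions in the mesoderm and epidermis. UNC-62 and CEH-60 are also known for their part in vitellogenin expression in the adult intestine. Iroquois proteins share the TALE loop but are not known as Hox cofactors in the same sense, so the name "Hox cofactor" covers 5 of the 6 genes.

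Each entry of the authors' lists is a called region with a summit and a signal value. The IDR list (irreproducible discovery rate, a measure of how alike 2 replicates rank their regions) held 1681 peaks, all of them the strongest entries of a relaxed list of 21766 made from both replicates together, here called the pooled list. The relaxed lists of replicate 1 and replicate 2 held 21217 and 19577 entries, and all relaxed lists hold background regions as well as peaks. Signal values are on a scale of their own in each list, so ranks within a list (1 is the strongest) are set side by side instead. An entry was near a start when no more than 1000 bases separated its summit from the start of any annotated transcript, and in the locus when its summit fell between 5000 bases upstream and the end of the gene. The lists give no read numbers, so the depth behind an entry is unknown. The mitochondrial genome, which holds none of these genes, had 1 entry in replicate 1 and 13 in replicate 2.

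The sequences at the summits that carry the account below are shown on the plus strand of ce11, from the RefSeq copy of the assembly, with matches to any of 4 motifs in capitals. The motifs were TAATTA (a LIM homeodomain core), TGACAG (a MEIS core), TGATNNA (the start of the composite site of PBC and Hox proteins) and GAGAGA. They were searched on both strands, and matches may overlap. The first line is the strongest entry at any of the 6 genes, cut to 30 bases because it lies in an annotated untranslated region (chrV:4507993-4508022). The second is the pooled entry just upstream of the first unc-62 start (chrV:4497262-4497362), the third a pooled entry in an unc-62 intron (chrV:4502854-4502954), and the fourth an unc-62 entry met in replicate 1 and not in replicate 2 (chrV:4499171-4499271). The last is the strongest entry at psa-3 (chrX:15409349-15409449). The sequence at irx-1 is not shown.
unc-62 IDR summit: agccttggcaaTGATGGAtcgccgcagctg
unc-62 upstream: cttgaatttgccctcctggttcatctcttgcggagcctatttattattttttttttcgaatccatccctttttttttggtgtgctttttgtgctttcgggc
unc-62 intron: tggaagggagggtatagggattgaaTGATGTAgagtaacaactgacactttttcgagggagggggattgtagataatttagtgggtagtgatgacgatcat
unc-62 replicate 1: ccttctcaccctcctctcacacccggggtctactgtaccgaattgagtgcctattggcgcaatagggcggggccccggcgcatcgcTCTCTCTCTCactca
psa-3 intron: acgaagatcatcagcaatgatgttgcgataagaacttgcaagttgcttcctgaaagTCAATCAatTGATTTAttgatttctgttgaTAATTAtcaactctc

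Of the 6 genes, 1 had an IDR peak near a start, against 6.82% of all protein-coding genes, and 1 had one in the locus, against 13.7%. Both counts are unc-62. Pooled entries lay in the loci of unc-62, irx-1 and psa-3 (3 of 6, against 70.3% of genes), and each of these had at least 1 near a start (3 of 6, against 42.1%). The 3 PBC genes had no pooled entry. Within 2000 bases of a start the IDR count was 1 of 6 (9.57% of all genes), within 500 bases 0 of 6 (5.12%), and by the single nearest start 1 of 6 (7.32%). Among the 1681 strongest entries of each replicate alone it was 1 of 6 in replicate 1 (6.63%) and 1 of 6 in replicate 2 (6.59%). The genes were selected on these same ranks, so the counts describe the lists and were not tested.

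**Figure D1:**
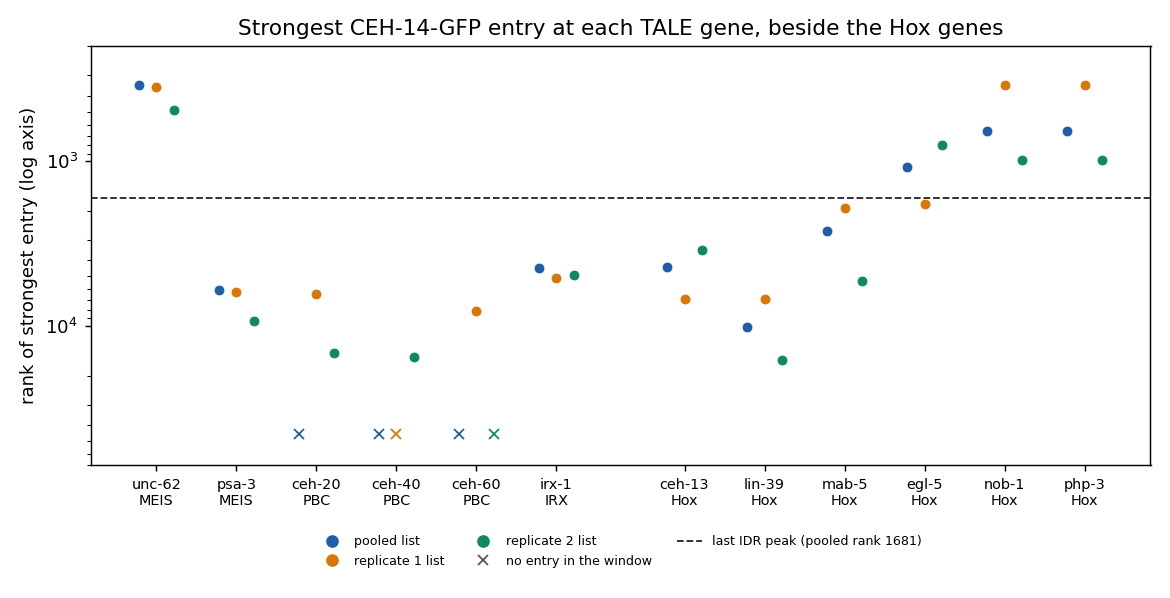
Rank of the strongest entry (log axis, strongest at the top) in the locus of each TALE gene, followed by the Hox genes, in the pooled list and in both replicate lists. Crosses stand for a list with no entry in the window, and the dashed line is the last IDR peak. Of the TALE genes, unc-62 alone lies above the line, at ranks 346, 356 and 489, while ceh-20, ceh-40 and ceh-60 have crosses for the pooled list.

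unc-62 (WBGene00006796, V, 4497461 to 4511449, plus strand), the worm's Meis/Homothorax gene, held the strongest entry. Its IDR peak spanned 4507791 to 4508246, with the summit at 4508019. The signal value was 146.4 in the pooled list (rank 346), 68.7 in replicate 1 (rank 356) and 71.6 in replicate 2 (rank 489). The summits of the 3 lists lay at 4508019, 4508022 and 4508011, so both replicates placed it within a few bases of the same point and above the rank of the last IDR peak, 1681.

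The peak sat deep inside the gene, 10558 bases downstream of the most upstream start. In 17 of the 18 annotated transcripts the summit lay in 1 intron of 3973 bases (4505906 to 4509878), which is intron 8 of 9 in transcript T28F12.2a.1. In the remaining transcript, T28F12.2d.10, it lay in a 5′ untranslated region of 2709 bases that covers most of that intron, 815 bases from the transcript's start at 4507204. The peak counts as near a start through this 1 transcript: with only the most upstream start of each gene, an alternative chosen after the data were seen, 0 of the 6 genes had an IDR peak near a start, against 6.32% of all genes. Of the 10 coding exons of T28F12.2a.1, 2 lie after the summit, with 367 of its 1692 coding bases. No other protein-coding start lay within 1000 bases of the summit, and no tRNA, snoRNA or snRNA gene within 200 bases.

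The 101 bases around this summit held TGATNNA, as TGATGGA from 15 to 9 bases before the summit, and GAGAGA at 2 positions. They held neither TAATTA nor TGACAG. Of the motifs found there, TGATNNA was present in 10.95% of the 1671 nuclear IDR peaks and in 19.6% of the 21755 nuclear pooled entries in windows of the same length, and GAGAGA in 25.9% and 11.5%. The GC content of the window was 56.4%, against a median of 48.5% over the nuclear IDR peaks. A match is a stretch of letters and does not show that a protein binds there.

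**Figure D2:**
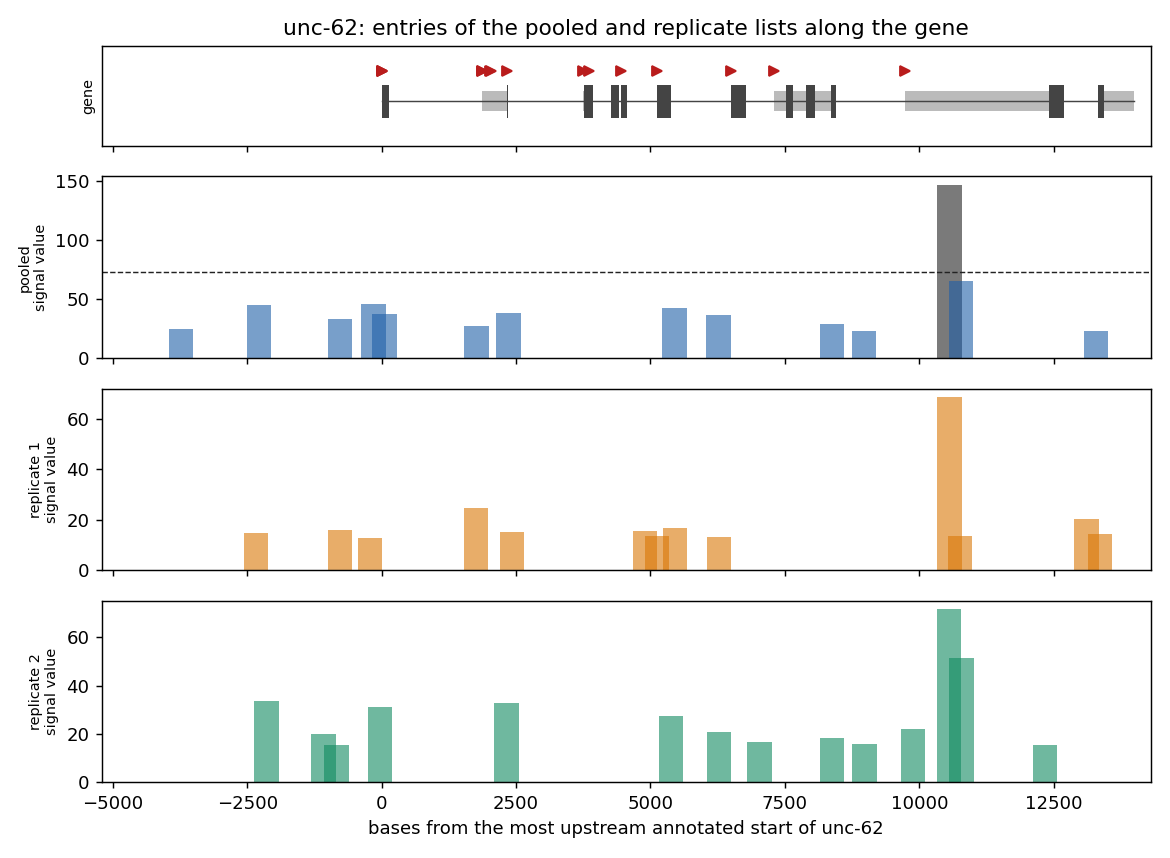
Entries along unc-62 by distance from its most upstream start, with bars centred on the summit, as wide as the entry and as high as its signal value (a separate scale in each list). The gene model is at the top, with coding exons dark, untranslated regions grey and red arrows at annotated starts, and the dashed line is the weakest IDR signal value. The IDR peak, dark in the pooled panel, stands at 10558 bases, with entries of replicates 1 and 2 at 10561 and 10550 bases. Of the lower entries, some recur in both replicates and others lie in 1 replicate alone.

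unc-62 had 14 pooled entries in its locus of 18989 bases, 13 in replicate 1 and 14 in replicate 2. Of the 14, 9 lay near a start. Their pooled signal values ran from 22.8 to 146.4. That is 0.737 pooled entries per 1000 bases, against 0.217 over the nuclear genome. Of the 19985 protein-coding genes, 45 (0.225%) had as many pooled entries in their locus, 494 (2.47%) had a locus as long, and 381 (1.91%) had as many per 1000 bases. Among the 494 genes with a locus as long, the median was 6 pooled entries and 42 had at least 14. The gene has 15 distinct annotated starts, against a median of 1, and 6 genes have at least as many. All these counts of genes include unc-62 itself. The bases within 1000 of a start add up to 11301 for unc-62, against 2001 for a gene with 1 start, so that unc-62 has more room for an entry near a start.

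Below the IDR peak, the replicates ranked the unc-62 entries differently. A second pooled entry with its summit at 4508237, 218 bases further along and overlapping the first, had a signal value of 65.0 (rank 2162). Its counterpart had rank 17919 in replicate 1 and rank 1080 in replicate 2. It lay 1033 bases from the nearest start, just outside the window for entries near a start. The IDR peak, at 815 bases, was the nearest inside it.

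The entry upstream of the first start, with its summit at 4497312 and 149 bases before that start, had a pooled signal value of 45.6 (rank 4482), and the strongest overlapping entry had rank 19622 in replicate 1 and rank 3167 in replicate 2. An entry 2285 bases before that start (pooled rank 4671) had ranks 14931 and 2589 in replicates 1 and 2. An entry 323 bases past the start at 4502581, in an intron and with TGATNNA as TGATGTA in its window (pooled rank 5437), had ranks 11046 and 4241. These 3 entries ranked higher in replicate 2.

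Of the 14 pooled entries, those with summits at 4505839 (rank 13343) and 4506430 (rank 21061) were met in replicate 2 alone. That at 4493726 (rank 17965) was met in neither replicate. Another 2 were met in replicate 1 and had no overlapping entry in replicate 2. One, with its summit at 4510748 in an intron near the end of the gene, had rank 6727 in replicate 1 and rank 20443 in the pooled list. The other, with its summit at 4499221 and 106 bases before the start at 4499327, had rank 4095 in replicate 1 and rank 15352 in the pooled list. The window of this entry had the highest GC content of the 21 pooled entries at the 6 genes, 61.4%, and held GAGAGA. Among the 5000 strongest entries of each list, unc-62 had 2 in replicate 1 and 6 in replicate 2.

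psa-3 (WBGene00009560, X, 15407931 to 15419298, plus strand) encodes a MEIS-related protein and acts in the asymmetric division of the T cell of the tail, where nob-1 and ceh-20 act on it. Its 3 pooled entries all lay near 1 of its 4 starts, and none was an IDR peak. The strongest, with its summit at 15409399 and 344 bases past the third start, had a signal value of 39.9 (rank 6044) in the pooled list, 20.9 (rank 6195) in replicate 1 and 17.7 (rank 12140) in replicate 2. It lay in an intron of psa-3 and within pqn-36, a gene on the other strand.

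The window of that entry held TGATNNA at 2 positions, as TGATTTA and, on the minus strand, as TGATTGA, and TAATTA further along, as printed above. Of the 21 pooled entries at the TALE genes, 2 had TAATTA within 50 bases of the summit, this one and another at irx-1. That share, 9.52%, was close to the 8.64% of all nuclear pooled entries, so the match does not set the psa-3 entry apart. Of the other psa-3 entries, the 1 at 15417996 (rank 8308) overlapped an entry of replicate 2 alone (rank 9318), and the 1 at 15407718, 213 bases before the first start (rank 16339), an entry of replicate 1 alone (rank 14661). Neither window held any of the 4 motifs. With 0.183 pooled entries per 1000 bases, psa-3 was below the 0.217 of the nuclear genome.

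The PBC genes, which encode the relatives of Pbx and Extradenticle, had 0 entries each in the pooled list and 0 to 3 in each replicate list. ceh-20 (WBGene00000443, III, 6979884 to 6981785), the main PBC partner of Hox proteins in the worm, had 1 entry in each replicate list. That of replicate 1 lay 2427 bases upstream, in a coding exon of F31E3.2 (signal value 20.7, rank 6383). That of replicate 2 lay in an intron of ceh-20, 1254 bases past the start (signal value 16.4, rank 14557). Its summit was also within 1000 bases of a start of F31E3.6, another protein-coding gene. The 2 entries were at different places, so the replicates shared no entry at ceh-20.

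Pooled entries came close to ceh-20 without entering its window: the nearest upstream lay 5268 bases from the start (signal value 30.9, rank 11118), just beyond the 5000 bases of the locus. An IDR peak with a pooled rank of 754 lay 7776 bases upstream. The surroundings of ceh-20 therefore did hold entries in the same lists.

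ceh-40 (WBGene00000461, X, 12318126 to 12320777, minus strand) had 0 entries in replicate 1 and 2 in replicate 2, with ranks of 15524 and 18213. Both lay over srd-40, a neighbouring gene, 4721 and 3973 bases upstream. ceh-60 (WBGene00017690, X, 6522596 to 6530146, minus strand) had 3 entries in replicate 1 and 0 in replicate 2. The strongest of them (signal value 18.9, rank 8156) lay in the untranslated region at the end of ceh-60, and the others, with ranks of 13442 and 19707, in introns of ilys-5 upstream. The nearest IDR peaks were 27262 bases from ceh-40 and 63499 bases from ceh-60. At none of the 3 PBC genes, each with 1 annotated start, did any list have a summit near a start. Of all protein-coding genes, 42.1% had one in the pooled list, 41.6% in replicate 1 and 39.8% in replicate 2. A pooled entry in the locus was present for 70.3% of all genes.

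irx-1 (WBGene00007984, I, 9536465 to 9540966, minus strand), the worm's Iroquois gene, had 4 pooled entries, none of them an IDR peak. The strongest lay in intergenic sequence 1530 bases upstream, with a signal value of 45.8 (rank 4432) in the pooled list, 22.4 (rank 5141) in replicate 1 and 25.5 (rank 4928) in replicate 2. A second entry 201 bases further upstream (rank 11480) overlapped it and the same replicate entries. These 2 pooled entries thus share 1 pair of replicate ranks, the pair with the ratio closest to 1 among member entries met in both replicates. The summits of that pair lay at 9542505 in replicate 1 and 9542399 in replicate 2. The second pooled entry also overlapped a weaker entry of replicate 1 (rank 6599). It was the other of the 2 pooled member entries with TAATTA in the window.

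The irx-1 entry near the start, 114 bases upstream (signal value 27.2, rank 14774), overlapped no entry of either replicate. The entry 3986 bases upstream (rank 12280) lay in an intron of swah-1 and within 1000 bases of a swah-1 start, and it was met in replicate 1 alone, at rank 5988. irx-1 had 0.421 pooled entries per 1000 bases of locus, 0.316 entries in replicate 1 and 0.210 in replicate 2, against 0.217, 0.212 and 0.195 over the nuclear genome.

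**Figure D3:**
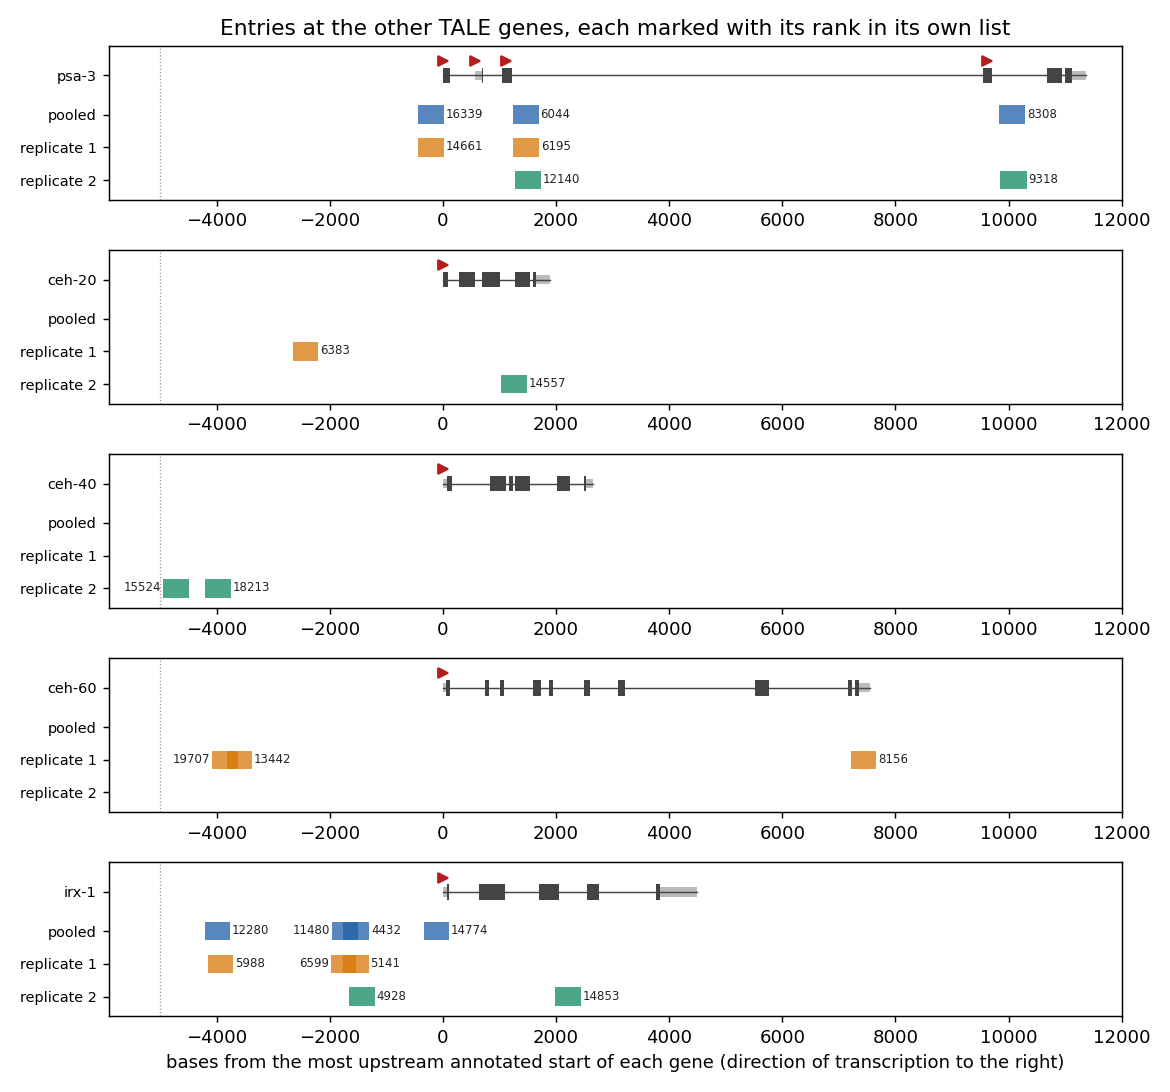
Entries at psa-3, ceh-20, ceh-40, ceh-60 and irx-1 by distance from each gene's most upstream start, with the gene model above the pooled, replicate 1 and replicate 2 lists. Each box is an entry, the number beside it is its rank in its own list, and the dotted line is the edge of the locus, 5000 bases upstream. The pooled rows of the 3 PBC genes are empty, and the boxes at 344 bases past the third psa-3 start and 1530 bases upstream of irx-1 recur in all 3 lists.

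Across the 6 genes, 21 pooled entries lay in the loci, and 12 of them (57.1%) overlapped an entry of both replicates by at least 1 base, against 50.7% of all nuclear pooled entries. Of the others, 4 were met in replicate 1 alone, 3 in replicate 2 alone and 2 in neither. The 12 include overlapping neighbours that share their strongest replicate entries (unc-62 at 4497312 and 4497512 and at 4508019 and 4508237, irx-1 at 9542496 and 9542697). They therefore stand for fewer separate regions. Members had a locus entry in 5 of 6 cases in replicate 1 (70.9% of all genes) and 5 of 6 in replicate 2 (69.5%), but an entry near a start in 2 of 6 in each (41.6% and 39.8%). Of the 22 member entries of replicate 1, 5 (22.7%) overlapped no pooled entry, against 26.6% of all its nuclear entries. For the 21 of replicate 2 the number was 7 (33.3%), against 21.5%. By summit, 9 of the 21 pooled entries lay in introns, 4 within 1000 bases upstream of a gene, 4 in other intergenic sequence, 2 in coding exons and 2 in untranslated regions. Over all nuclear pooled entries the shares were 31.2%, 23.2%, 15.5%, 18.8% and 6.06% in the same order. A further 5.24% lay in exons of non-coding genes.

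**Figure D4:**
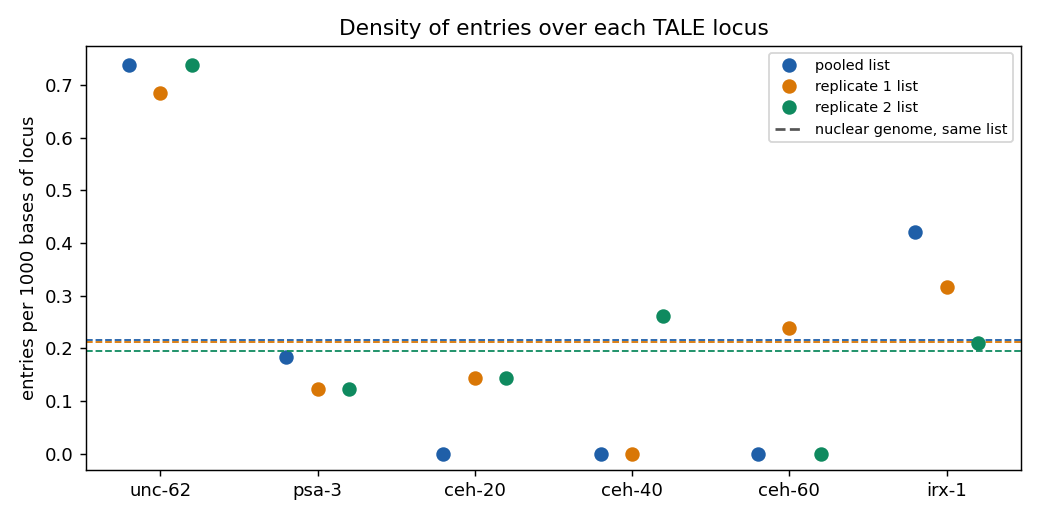
Entries per 1000 bases of locus for each TALE gene in the pooled list and both replicate lists. Dashed lines give the same measure over the nuclear genome. unc-62 lies at 0.685 to 0.737 in the 3 lists, and irx-1 at 0.210 to 0.421, each above the line of the same list (0.195 to 0.217), psa-3 and ceh-20 lie below it in every list, and ceh-60 in replicate 1 (0.239) and ceh-40 in replicate 2 (0.261) lie above it in that list alone.

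The density over all 6 loci, 0.292 pooled entries per 1000 bases, was above that of the nuclear genome through unc-62: without it the other 5 loci had 0.132. Within 50 bases of the 21 summits, TAATTA was present at 2 (9.52%, against 8.64% of all nuclear pooled entries), TGATNNA at 5 (23.8%, against 19.6%), GAGAGA at 4 (19.0%, against 11.5%) and TGACAG at 0 (against 3.21%). With 21 windows, shares this close to the background are no result about these genes.

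By the ranks of the strongest IDR peak near a start in the pooled list and both replicates, the genes most like unc-62 among 1349 others were F48F5.8 and fce-2, which share a peak (ranks 373, 351 and 465), and F13A7.14 (343, 374 and 429). The measure was the sum over the 3 lists of the absolute log2 ratio of ranks, 0.201 for the first pair and 0.273 for F13A7.14. These peaks lay within 1000 bases upstream of a gene, whereas that of unc-62 lay inside it. The peak next in this order (ranks 348, 379 and 427, sum 0.294) had its summit in an untranslated region, as that of unc-62 did.

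The Hox genes, whose proteins are the partners of the PBC and MEIS proteins, had 0 of 6 with an IDR peak near a start, against 6.82% of all genes, and 3 of 6 with one in the locus, against 13.7%. nob-1 and php-3 share that peak (rank 659, in an intron of nob-1), and that of egl-5 (rank 1087) lay 1752 bases upstream. All 6 had a pooled entry near a start, against 42.1% of all genes. The strongest such entry was at rank 4367 for ceh-13, 16598 for lin-39, 2642 for mab-5, 2148 for egl-5, 2421 for nob-1 and 10174 for php-3.

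Of 14 further genes known as targets or outputs of TALE proteins, 1 had an IDR peak near a start: egl-17, an FGF gene, at rank 120 in the pooled list, 115 in replicate 1 and 125 in replicate 2. The summit lay on a tRNA gene inside egl-17, so the entry cannot be given to either gene alone. egl-18, a GATA factor gene, had 2 IDR peaks in its locus (ranks 854 and 1543), with summits 4669 and 4876 bases past its most upstream start. The first lay over the non-coding gene F55A8.3.

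Others of these genes had pooled entries near a start below the IDR peaks. The strongest such entry was at rank 5516 for elt-6, 5032 for arg-1, 9392 for egl-1, 18351 for vit-2 and 14705 for vit-6. Of the 6 vitellogenin genes, which UNC-62 and CEH-60 act on in the adult, none had an IDR peak in the locus, against 13.7% of all genes. Of these 6, vit-4 and vit-5 had no pooled entry in the locus, where 70.3% of all genes had one. Taking the Hox genes and these 14 together, 1 of 20 had an IDR peak near a start, against 6.82% of all genes, and 5 of 20 had one in the locus, against 13.7%.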

How the data were processed

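The deposited files are narrowPeak lists of ChIP-seq regions. Per the sample records deposited with them, a relaxed list was made from alignments of 1 or both replicates plus another file of unstated kind, and the IDR peaks from the relaxed lists. No source used here names an aligner, a peak caller or the cutoff for IDR. Signal values (column 7) are those of the authors, and served only to describe and rank entries inside a list. The 4 ce11 lists were used. The ce10 lists were not used.

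The lists are labelled ce11, the same sequence as WBcel235, so genes came from Ensembl release 115 and bases from the RefSeq copy. Entry ends did not pass the chromosome lengths of WBcel235. That check cannot tell ce11 from a build of nearly the same length, because the last entries end well before the chromosomes do. Summits are the second plus the tenth column, given 1-based. Counts used Python 3.11.15, numpy 2.4.6 and pandas 2.3.3, and the counting and motif functions were tested on simulated data. The 6 genes, the Hox and target lists, windows and motifs were chosen with earlier results of these data known. Genes outside the 6 were named by rule: listed Hox and target genes with an IDR peak or pooled entry near a start, genes at a member's IDR peak, and the 3 genes most like the leading member in rank. The IDR peaks and pooled entries in the loci of listed genes were added to these. Ranks in a replicate are those of the strongest overlapping entry, unless its counterpart is named.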

Additional observations from a re-analysis of the deposited data

How the results depend on the processing

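The number of the 6 genes with an IDR peak near a start stayed at 1, unc-62, within 2000 bases of a start, by the single nearest start, among the 840 strongest peaks, after peaks at tRNA, snoRNA and snRNA genes were left out, and with either replicate left out. It was 0 within 500 bases and with the most upstream start only. The count in the locus was 1 in every alternative. Pooled entries at the members numbered 21 in all and 12 in gene bodies alone. With a replicate left out, the list of the other replicate held 21 to 22. Of the 21 pooled entries, 5 were among the 5000 strongest of the 21766 in that list, and 4 of the 5 were at unc-62. Of the 21, 10 (47.6%) were met in both replicates at 50% reciprocal overlap, against 43.7% of all nuclear pooled entries. With summits within 50 bases the number was 4 (19.0%, against 19.9%), and by an overlap of at least 1 base it was 12. Within 100 bases of the summit TAATTA was present at 3 (14.3%, against 15.2% of all nuclear pooled entries) and TGACAG at 1 (4.76%, against 6.49%). TGATNNA was present at 11 (52.4%, against 36.5%) and GAGAGA at 7 (33.3%, against 20.1%). These shares were not tested. For the 20 Hox and target genes the count of 1 became 5 in the locus and 2 within 2000 bases, and was 1 to 2 with a replicate left out (2, egl-17 and nob-1, without replicate 1). The causes were not tested. No paired analysis was possible because the series has 1 group. Ranks rest on called regions without read numbers, so a gene without an entry is not shown to be unbound.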
